A study of Mus musculus with 21 samples.

Results

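The 3 genes described here are the metallothioneins Mt1, Mt2 and Mt3, taken as the rows with those names among the 37734 genes with a value in each library. They were chosen by their normalized read counts in these same libraries, so that the levels and the differences between groups are given as a description, with no test. Metallothioneins are small, cysteine-rich proteins that bind zinc and copper ions and buffer them inside the cell. In mouse tissues Mt1 and Mt2 are the widespread pair. They are switched on by metals, through the zinc-sensing transcription factor MTF1, and also by glucocorticoids and oxidative or inflammatory stress. Mt3 is best known from neurons and Mt4 from stratified squamous epithelium. Conventional dendritic cells (cDCs) present antigens to T cells, and in the thymus they take part in the removal of self-reactive thymocytes.

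The RNAseq libraries came from cDCs of C57BL/6 mice aged 6 to 8 weeks, with no genetic change or treatment named for any group. CD11c+ cells were enriched with magnetic beads from digested, pooled organs and sorted into cDC1 (CD24+ CD11b-, also F4/80-, Ly6g-, Ly6c-, DX5- and B220-) and cDC2 (CD24- CD11b+ B220-), each split into immature cells lacking CCR7 and ESAM and mature cells bearing both. The 6 groups were immature splenic cDC1 (n = 4) and cDC2 (n = 3), immature thymic cDC1 (n = 4) and cDC2 (n = 3), and mature thymic cDC1 (n = 3) and cDC2 (n = 3). Mature splenic cDCs were not analysed here, so maturity was compared in the thymus only. Organs were pooled, and nothing in the labels ties a sample to separate animals. Each group held 3 distinct sample numbers: splenic cDC1 replicates 1, 4 and 5 carried number 2, and thymic cDC1 replicates 3 and 4 were labelled 8 and Et8, so that 2 samples in each of these groups may come from 1 pool. With 1 sample per number the difference of Mt3 with maturity in cDC1 was -4.70 on the log2 scale, that of Mt2 between organs in cDC1 was 1.47, and the counts of called genes given below did not change.

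Each value is a normalized read count, the reads counted in a gene divided by a size factor for the library, and 3 reads corresponded to a level of 1.15 to 5.53 depending on the sample. The 21 libraries held 14266867 to 40119669 reads in genes. Splenic cDC1 replicates 4 and 5 shared their sample number, index and lane in the labels, differed far less from each other than any other pair of that group and were summed, which left 20 samples. Libraries were sequenced in lanes 5 and 8, and every mature library was in lane 8. The transcripts of the sort markers, Ccr7 and Esam, were among 7 genes of mature cDCs whose summed level was 387777 to 559761 in mature samples and 3418 to 34229 in immature ones. The summed cDC1 list was higher in cDC1 than in cDC2 of the same organ and maturity in every sample. The reverse held for the summed cDC2 list. Single genes could differ from the sums. In mature thymic cells Wdfy4 averaged 1215 in cDC1 against 2762 in cDC2, and Tlr3 averaged 12.7 against 31.5. Batf3 was at 4998 ± 611 against 4532 ± 1139 (n = 3 each), while Xcr1, Clec9a, Cadm1 and Irf8 were higher in mature cDC1. The CD11b gene Itgam was at 417 in immature thymic cDC2 and at 20.4 in mature thymic cDC2 against 1581 in splenic cDC2.

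The 3 genes lie side by side on chromosome 8, all on the forward strand, in the mm10 build used for the alignment (GRCm38, GENCODE M21 annotation). Mt3 (ENSMUSG00000031760) spans chr8:94152607-94154146, Mt2 (ENSMUSG00000031762) spans chr8:94172664-94173568 and Mt1 (ENSMUSG00000031765) spans chr8:94179082-94180327. The gap between Mt3 and Mt2 is 18517 bases and that between Mt2 and Mt1 is 5513 bases, and Mt4 lies 13575 bases before Mt3. The main transcript of each has 3 exons, with a length of 549 bases for Mt1, 511 for Mt2 and 536 for Mt3. Despite the relatedness of the proteins, none of the 50-base words of these transcripts occurred in a transcript of another gene, so that reads of that length can be told apart. An antisense gene, Gm45774, covers 432 exon bases of Mt2 on the reverse strand, and it was not analysed here. The strand setting of the read counting is not given in the sources used here, so reads of Mt2 and of that gene cannot be told apart with certainty.

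The promoters are shown because MTF1 acts through short metal response elements, whose core is TGCACNC or TGCGCNC. The RefSeq sequences of the 250 bases before each RefSeq start (GRCm38.p6, forward strand, at chr8:94178839-94179088 for Mt1, chr8:94172368-94172617 for Mt2 and chr8:94152357-94152606 for Mt3) read as follows, 5′ to 3′, with matches to TGCACNC or TGCGCNC on either strand in capitals.
Mt1: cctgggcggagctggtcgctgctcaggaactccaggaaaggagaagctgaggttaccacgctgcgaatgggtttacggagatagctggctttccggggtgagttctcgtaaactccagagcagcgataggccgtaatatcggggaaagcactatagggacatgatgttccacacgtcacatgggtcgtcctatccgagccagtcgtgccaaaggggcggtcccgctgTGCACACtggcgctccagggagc
Mt2: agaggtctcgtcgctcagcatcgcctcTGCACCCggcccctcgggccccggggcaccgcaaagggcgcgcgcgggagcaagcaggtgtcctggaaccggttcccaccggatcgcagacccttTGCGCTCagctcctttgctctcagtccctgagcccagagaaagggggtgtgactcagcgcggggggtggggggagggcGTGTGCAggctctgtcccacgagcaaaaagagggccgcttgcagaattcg
Mt3: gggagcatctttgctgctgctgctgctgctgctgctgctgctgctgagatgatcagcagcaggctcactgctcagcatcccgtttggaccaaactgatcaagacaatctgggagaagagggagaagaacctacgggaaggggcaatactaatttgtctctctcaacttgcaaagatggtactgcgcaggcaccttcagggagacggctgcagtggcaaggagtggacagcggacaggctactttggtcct
The Mt2 window held 3 matches, the Mt1 window held 1 and the Mt3 window held 0. Among the 32851 promoter windows of the same length, 21.4% held at least 1 match and 1.26% held at least 3. Of the other motifs searched on both strands, the antioxidant element TGACNNNGC occurred once, in Mt2 (10.2% of all windows), and overlapped no metal motif. The palindromic glucocorticoid response element (0.00913% of windows), the E-box CACGTG (6.02%) and TATAAA (12.4%) occurred in none of the 3 windows.

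GENCODE also lists a transcript of each gene that starts further downstream, by 129 bases in Mt1, 196 in Mt2 and 139 in Mt3, and the same search was made in the 250 bases before those starts. There the Mt1 window held 5 metal motif matches, 4 of them on the gene's strand, of which the nearest lay 24 to 18 bases before that start. The Mt2 window held 4 matches and the Mt3 window held 3. In these windows TATAAA lay 33 to 28 bases before the downstream start of Mt3 and 107 to 102 bases before that of Mt2, and TGACNNNGC lay 70 to 62 bases before that of Mt1. The motifs found thus depended on which annotated start was taken. A match is a run of letters only and says nothing of binding, and the shares over all promoters refer to RefSeq starts.

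Mt1 was expressed in all 6 groups and was higher in mature than in immature thymic cDCs. Among immature cells, splenic cDC1 had 415, 276, 598 and 430 normalized read counts and thymic cDC1 had 313, 501, 674 and 366. Splenic cDC2 had 796, 443 and 673, and thymic cDC2 had 724, 688 and 1073. The ranges of spleen and thymus overlapped in both subsets, so for Mt1 no separation by organ was seen. Mature thymic cDC1 had 1473, 1707 and 1587, and mature thymic cDC2 had 3508, 3814 and 1593. Every mature sample lay above every immature sample of its subset, which held for 27.3% of the 14966 genes tested in thymic cDC1 and 31.1% in thymic cDC2, and 1 mature cDC2 sample, replicate 3, lay at the level of mature cDC1.

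In mean ± SD, Mt1 went from 464 ± 161 (n = 4) to 1589 ± 117 (n = 3) normalized read counts between immature and mature thymic cDC1, a ratio of 3.43. In thymic cDC2 it went from 828 ± 213 (n = 3) to 2972 ± 1204 (n = 3), a ratio of 3.59. On the log2(value + 1) scale the differences were 1.84 ± 0.31 (SE) in cDC1 and 1.77 ± 0.34 in cDC2, and without mature cDC2 replicate 3 the latter was 2.17. The corresponding differences between immature thymic and splenic cells were 0.10 ± 0.29 in cDC1 and 0.39 ± 0.34 in cDC2, which did not exceed the spread between samples. Among immature thymic cells the ranges of cDC1 and cDC2 did not overlap, with cDC2 higher by 0.87 ± 0.31 on the log2 scale, as was the case without overlap for 20.2% of the genes tested.

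**Figure D1:**
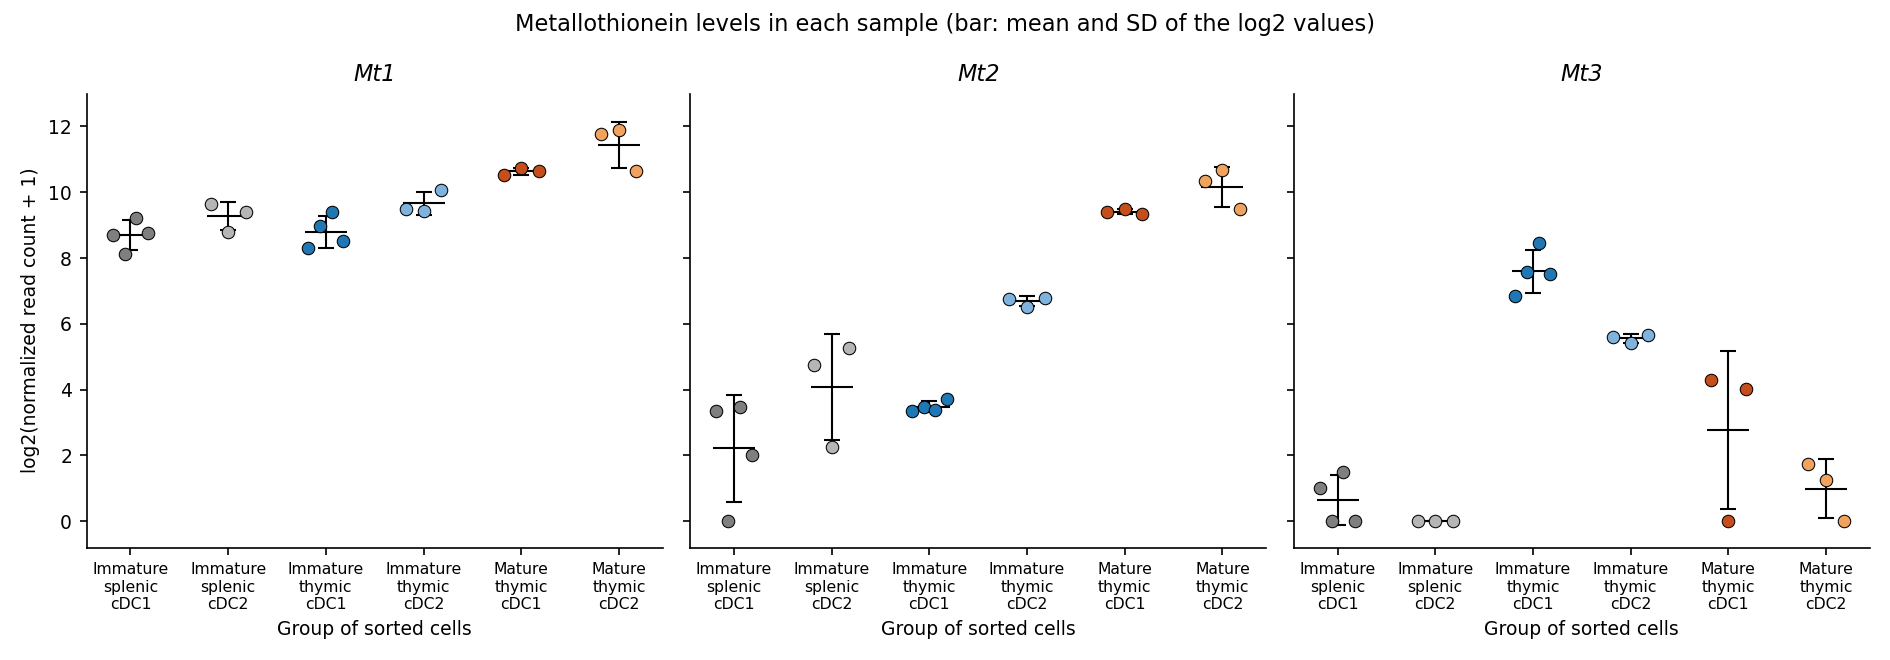
Each point is 1 sample, with log2(normalized read count + 1) on the vertical axis for Mt1, Mt2 and Mt3 and the 6 groups of sorted cells on the horizontal axis; the bars give the mean and SD of the log2 values. Mt1 and Mt2 are highest in mature thymic cDCs, whereas Mt3 is highest in immature thymic cDC1 and is at or near 0 in the spleen.

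Mt2 was nearly silent in immature cDC1 and splenic cDC2, intermediate in immature thymic cDC2 and abundant in mature thymic cDCs. Splenic cDC1 had 9.26, 0, 10.2 and 3.07 normalized read counts, from 0 to 11 reads a sample, and splenic cDC2 had 25.6, 3.75 and 37.5. Immature thymic cDC1 had 9.29, 9.99, 9.36 and 12.1, within the range of the spleen. Immature thymic cDC2 had 108, 91.1 and 109, above every splenic sample and every immature thymic cDC1 sample. Of all genes tested, 22.2% were higher in thymic than in splenic cDC2 without overlap, and 20.2% were so in immature thymic cDC2 against immature thymic cDC1. Mature thymic cDC1 had 678, 712 and 641, and mature thymic cDC2 had 1285, 1622 and 715. The 2 mature groups did not overlap with any immature group. Of all genes tested, 27.3% in thymic cDC1 and 31.1% in thymic cDC2 were higher in mature cells without overlap. The mature groups were separated from each other only by the gap between 712 and 715, a separation in this direction that 20.7% of genes showed.

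Between immature and mature thymic cDC1, Mt2 went from 10.2 ± 1.33 (n = 4) to 677 ± 35.5 (n = 3) normalized read counts, a ratio of 66.4, with a 95% counting interval of 47.9 to 91.4 from the summed reads. In thymic cDC2 it went from 103 ± 10.0 to 1208 ± 459 (n = 3 each), a ratio of 11.8, with a counting interval of 10.9 to 13.8. The log2 differences were 5.93 ± 0.69 and 3.47 ± 0.74, and whether the subsets differed in this respect was not tested. Mature cDC1 and cDC2 differed by 0.75 ± 0.74 on the log2 scale, which is about its own error. Counting intervals cover counting error only, not the variation between samples.

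The organ of origin went with a difference of Mt2 in cDC2. Immature thymic cDC2 were above splenic cDC2 by 2.61 ± 0.74 on the log2 scale, from a splenic mean of 22.3 ± 17.1. The splenic samples were uneven: leaving out 1 sample at a time gave differences between 1.69, without splenic replicate 2, and 3.20, without splenic replicate 3, and within lane 8, with 1 splenic sample of 37.5, the difference was 1.39. In lane 5 it was 3.27. In cDC1 the difference between thymus and spleen was 1.26 ± 0.64, and the ranges overlapped.

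Mt3 differed from Mt1 and Mt2 in the direction of its differences with maturity and between thymic subsets: it was highest in immature thymic cDC1, lower in immature thymic cDC2, lower again in mature cells and absent or at single reads in the spleen. Immature thymic cDC1 had 114, 192, 348 and 181 normalized read counts, from 135 to 230 reads a sample. Immature thymic cDC2 had 47.0, 41.5 and 49.8, from 32 to 62 reads. The ranges of these groups did not overlap, as in 14.5% of genes lower in cDC2, and the spread was wide in cDC1 and narrow in cDC2. Splenic cDC1 had 1.03, 0, 1.85 and 0, which is 3 reads over all samples, and all 3 splenic cDC2 samples were at 0, which allows a level of up to 2.75, 1.87 and 4.89 at their depths. Mature thymic cDC1 had 18.4, 0 and 15.2, and mature thymic cDC2 had 2.30, 1.39 and 0. The mature samples thus kept few reads, 29 in all for cDC1 and 5 for cDC2, and mature cDC1 replicate 2, with 0 reads, allowed a level of up to 5.20. Genes whose immature thymic samples all lay above the splenic ones, as those of Mt3 did in both subsets, made up 8.85% of the genes tested in cDC1 and 22.2% in cDC2. Genes whose mature samples all lay below the immature thymic ones made up 28.1% in cDC1 and 28.8% in cDC2.

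Relative to the spleen, the summed reads of Mt3 in immature thymic cDC1, corrected for depth, were 361-fold those of splenic cDC1, with a 95% counting interval of 123 to 1755. In immature thymic cDC2 the mean was at least 14.5-fold that of splenic cDC2, taking 3 reads per library as the splenic level. The mean was 18.6-fold higher in immature (209 ± 99.0, n = 4) than in mature (11.2 ± 9.84, n = 3) thymic cDC1, with a counting interval of 10.8 to 23.5 from the summed reads, and leaving out 1 sample gave 12.4 (without mature replicate 2) to 27.5 (without mature replicate 1). In thymic cDC2 the means were 46.1 ± 4.23 in immature and 1.23 ± 1.16 in mature cells (n = 3 each). The latter rests on 5 reads and lies below the level of 3 reads in those samples, so that the ratio of 37.4 is imprecise: its counting interval was 15.1 to 113, and it was 66.2 without mature replicate 1 and 25.0 without mature replicate 3. On the log2(value + 1) scale, which understates changes of low genes, maturity went with a difference of -4.83 ± 0.79 in cDC1 and -4.56 ± 0.84 in cDC2. Mature cDC1 replicate 2 weighed on the former, which was -3.45 without it. Within lane 8 these differences were -5.08 and -4.54. The thymic excess over the spleen was present in both lanes, at 6.34 and 7.09 in cDC1 and at 5.58 and 5.54 in cDC2.

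**Figure D2:**
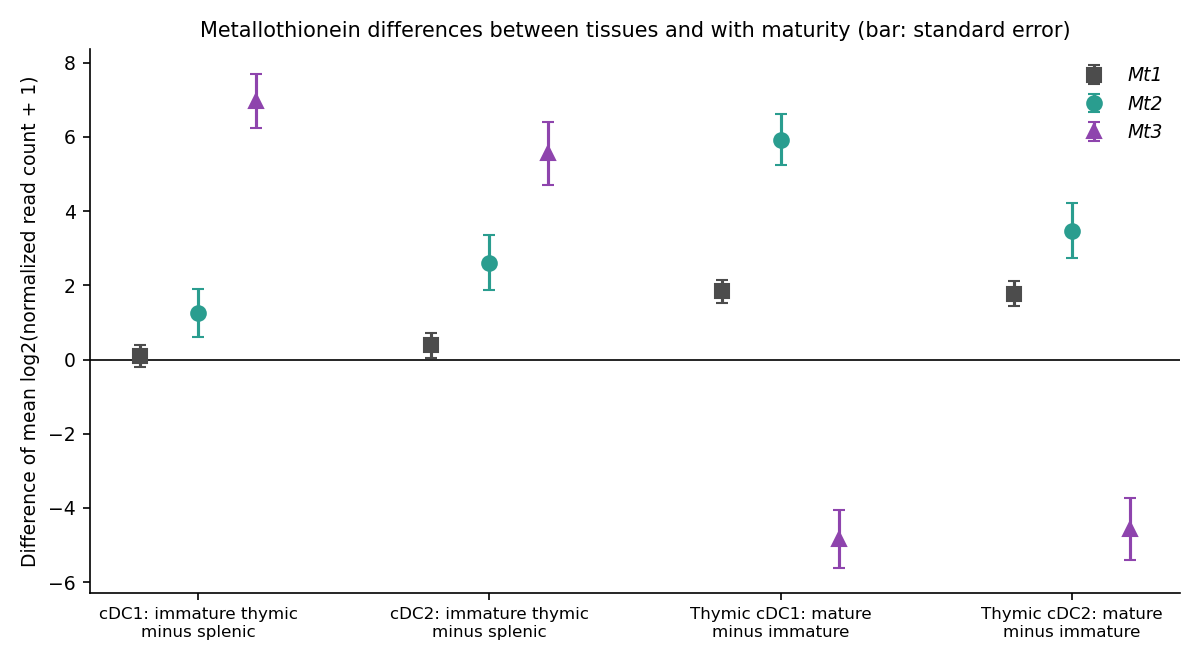
Differences of the mean log2(normalized read count + 1) for Mt1 (squares), Mt2 (circles) and Mt3 (triangles) in the 4 comparisons of organ and maturity; the bars are standard errors from the fit across all genes. Mt3 lies above 0 for thymus against spleen and below 0 for mature against immature cells, and Mt1 and Mt2 lie above 0 for mature against immature cells.

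The order of the groups differed between the genes. For Mt1 it was, from low to high, immature splenic cDC1, immature thymic cDC1, splenic cDC2, immature thymic cDC2, mature thymic cDC1 and mature thymic cDC2, and among the neighbours in this order only immature thymic cDC2 and mature thymic cDC1 did not overlap. Mt2 followed the same order, with no overlap from splenic cDC2 upwards. For Mt3 the order was splenic cDC2, splenic cDC1, mature thymic cDC2, mature thymic cDC1, immature thymic cDC2 and immature thymic cDC1, and only the last 3 were separated from each other. Over the 20 samples the log2 values of Mt1 and Mt2 had a Pearson correlation of 0.935, those of Mt1 and Mt3 of -0.19 and those of Mt2 and Mt3 of -0.06, all given as a description of samples that fall into 6 groups.

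Per kilobase of the main transcript, Mt1 was the highest of the 3 in every group. In immature thymic cDC1 the levels per kilobase were 845 ± 293 for Mt1, 389 ± 185 for Mt3 and 18.2 to 23.7 for Mt2 (n = 4), so that Mt3 was the second metallothionein there. In immature thymic cDC2 they were 1509 ± 388 for Mt1, 178 to 213 for Mt2 and 86.0 ± 7.89 for Mt3 (n = 3). In mature thymic cDC1 they were 2894 ± 213, 1325 ± 69.5 and 20.9 ± 18.4 in the order Mt1, Mt2, Mt3, with Mt2 second. Mt4 was at 0 in all samples but mature thymic cDC2 replicate 1, where it had 2 reads.

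The make-up of the Mt1 and Mt2 reads shifted with maturity. Mt2 accounted for 1.14 ± 0.976% of the Mt1 and Mt2 reads in splenic cDC1 (n = 4), 3.08 ± 2.22% in splenic cDC2 (n = 3) and 2.35 ± 0.844% in immature thymic cDC1 (n = 4). The share was 11.3 ± 1.90% in immature thymic cDC2, and it was 29.9 ± 1.44% in mature thymic cDC1 and 29.2 ± 2.15% in mature cDC2 (n = 3 each). The samples of mature cells lay between 26.8% and 31.5%, those of immature thymic cDC2 between 9.22% and 12.97%, and all others at or below 5.28%. Splenic cDC1 replicate 2 had 0 Mt2 reads among 280, which allows a share of up to 1.07%. Mature thymic cDC2 replicate 3, in which Mt1 and Mt2 were both lower than in the other mature cDC2 samples, had an Mt2 share of 31.0%, so the share there was not lower. All 3 genes together accounted for 19.2 ± 5.92 reads per 1000000 reads in splenic cDC1, 28.1 ± 7.38 in splenic cDC2, 29.1 ± 9.90 and 44.4 ± 9.89 in immature thymic cDC1 and cDC2, and 79.8 ± 8.58 and 154 ± 60.6 in mature thymic cDC1 and cDC2.

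**Figure D3:**
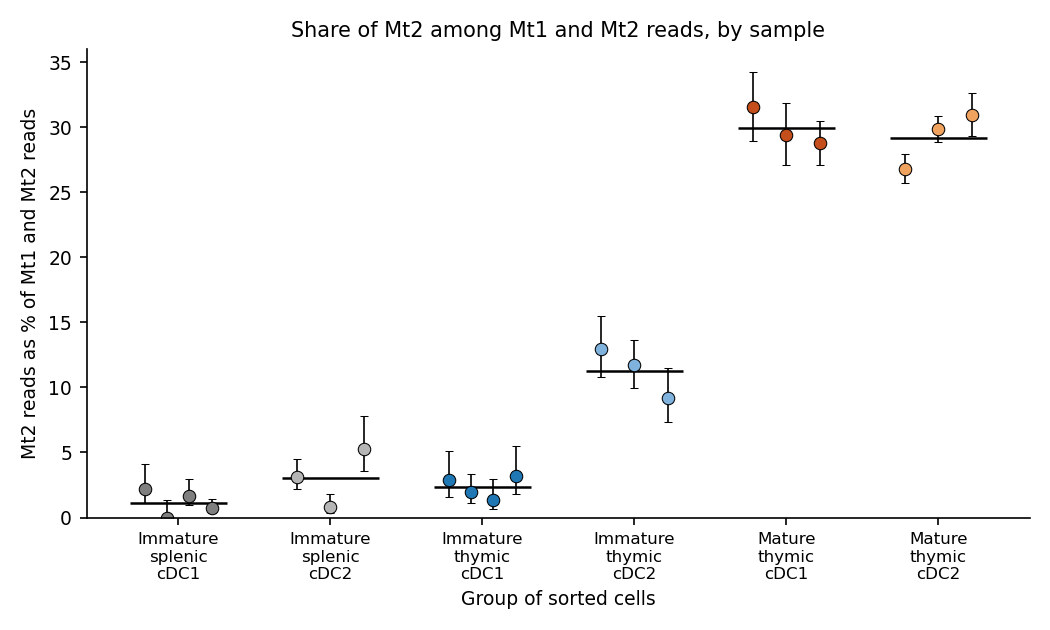
Mt2 reads as a percentage of the Mt1 and Mt2 reads in each sample, by group of sorted cells; points are samples, whiskers are 95% Wilson intervals for counting error and horizontal lines are group means. Mature samples of both subsets lie between 26.8% and 31.5%, immature thymic cDC2 near 11.3% and the other groups at or below 5.28%.

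Markers of other cells moved with some of these groups. The summed level of 10 thymocyte genes was 34.99 to 87.9 in splenic samples, 187 to 307 in immature thymic samples and 836 to 2586 in mature thymic samples, with 8 or 9 of the 10 above the level of 3 reads in each thymic group and the pre-T cell receptor gene Ptcra at 0 in immature thymic cDC1. The 9 macrophage genes summed to 5267 to 17891 in mature and 7563 to 11371 in immature thymic cDC2, with the complement genes C1qa, C1qb and C1qc among the highest, against 1986 to 2047 in splenic cDC2. Mature thymic cDC2 replicate 3, the lowest of that group in Mt1 and Mt2, had the sum of 5267. Replicates 1 and 2 had 16621 and 17891. In cDC1 the same sum was 511 to 1211 in immature cells of both organs and 5904 to 8460 in mature cells, most of it Vcam1, an adhesion molecule. The genes of this list did not move together in thymic cDC2. With maturity mean Vcam1 went from 621 to 3683 and Mertk from 148 to 266 there. Mrc1 went from 2265 to 202 and Fcgr1 from 312 to 124. Thymic epithelial genes summed to 57.2 to 166 in the spleen. In thymic cDC1 the sum was 614 to 728 in immature and 1847 to 2626 in mature cells. In thymic cDC2 it was 3511 to 3891 and 3877 to 4949. Epcam and Aire made up most of the thymic sums, and the epithelial regulator Foxn1 was at 1.3 to 14.2 on average. With maturity, mean Krt5 went from 22.1 to 98.6 in cDC1 and from 32.5 to 175 in cDC2. Krt8 and Trp63 also rose in both, whereas Epcam fell from 581 to 158 and from 3516 to 385. Aire changed most, from 10.31 to 1793 in cDC1 and from 43.39 to 3408 in cDC2. Most of the sum was thus Epcam in immature and Aire in mature thymic cells. Psmb11 of the same list averaged 10.41 in immature and 7.01 in mature thymic cDC1. In thymic cDC2 it averaged 13.04 and 107.6. B cell genes summed to 106 to 984 and erythroid genes to 0 to 96.0 over all samples, both highest in the spleen, and the neutrophil genes Camp and Ngp averaged below 1 read in every group. S100a8 and S100a9 of the same list averaged 11.0 (0 to 24.3) and 8.54 (0 to 18.4) in mature thymic cDC1. In the other groups they averaged at most 1.42 and 3.83. Plasmacytoid DC genes summed to 3295 to 12225, monocyte and neutrophil genes to 55.5 to 12546 and stromal and endothelial genes to 690 to 5083, each highest in immature thymic cDC2. Single genes carried the last 2 sums in that group. Ccr2 averaged 11476 there and Ly6c2 249, with Ly6g, Ngp and Camp at 0. Pecam1 averaged 2539 and Kdr 2255, with Col1a1 and Col1a2 at 0. The part of these cells in the levels of Mt1, Mt2 and Mt3 was not tested. In sorted bulk populations, fewer cells that express a gene and less RNA per cell cannot be told apart.

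The transcript Mtf1, which encodes the zinc-sensing factor MTF1, was more abundant in mature cells, and the protein was not measured. Mtf1 was at 566 to 704 normalized read counts in all 14 immature samples, with no difference called between organs or subsets. Mature thymic cDC1 had 3698, 3667 and 4023, and mature thymic cDC2 had 2375, 2594 and 2708. The ranges of mature and immature cells were far apart. The log2 fold change was 2.53 ± 0.12 in cDC1 (limma, Benjamini-Hochberg adjusted p = 4.49e-13) and 1.99 ± 0.13 in cDC2 (adjusted p = 1.45e-10). An antisense gene shares 8.09% of the exon bases of Mtf1 on the other strand.

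Mtf1 belongs to a list of 34 genes of zinc and copper handling, of which 28 were abundant enough to be tested. A gene was called at an adjusted p below 0.1 with a change above 2-fold (1 on the log2 scale). With maturity 5 of the 28 rose and 9 fell in thymic cDC1, where 21.3% of all genes rose and 24.5% fell, and 4 rose and 7 fell in thymic cDC2, where 18.6% rose and 17.0% fell. Between organs, 1 was higher and 0 were lower in thymic than in splenic cDC1 (4.26% and 4.49% of all genes) by this limma test and threshold, and 2 were higher and 0 lower in cDC2 (8.30% and 5.87%). The counts of lower genes were 0 with edgeR and DESeq2 too, and 0 at an unadjusted p below 0.05. The median log2 fold change of the list was -0.13 in cDC1 and -0.22 in cDC2 with maturity, against -0.04 and 0.04 over all genes tested. The corresponding medians between organs were 0.09 and 0.17, against 0.00 and 0.02.

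Of the 12 tested zinc importers, 3 rose and 5 fell with maturity in cDC1, and 2 rose and 4 fell in cDC2. Those counted as rising include Slc39a2 in both subsets, although the filter favoured that call. Slc39a2 was at 107, 120 and 128 in mature thymic cDC1 against 0 to 8.33 in immature thymic cDC1, a log2 difference of 4.70 ± 0.78, given without a p because the gene passed the filter on low values only through mature samples. In cDC2 it went from 1.48 ± 1.56 to 20.2 ± 9.05 (n = 3 each). Slc39a4, the importer of intestinal zinc uptake, rose to 48.9 ± 2.79 in mature thymic cDC2 from 8.94 ± 1.80 (n = 3 each). Slc39a8 went the other way, from 68.6 ± 22.7 (n = 4) to 0, 0 and 4.00 in cDC1 and from 57.9 ± 4.31 to 6.57 ± 4.05 in cDC2. Slc39a6, Slc39a10 and Slc39a11 also fell in both subsets, by 1.01 to 1.83 on the log2 scale. Slc39a7 fell in cDC1, but 80.7% of its exon bases are shared with the same-strand gene Gm20427 and its value is uncertain.

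Of the 6 tested zinc exporters, 1 was called between organs, Slc30a4, which was higher in the thymus in both subsets, and 5 were not. Slc30a4, which loads zinc into vesicles, was at 83.4 to 114 in splenic cDC1 and at 247 to 509 in immature thymic cDC1, a log2 fold change of 1.87 ± 0.22 (limma, adjusted p = 4.08e-06). In cDC2 it was at 93.1 to 139 in the spleen and 780 to 1105 in the thymus (2.96 ± 0.26, adjusted p = 5.93e-08). The thymic and splenic ranges did not overlap in either subset, as for 8.85% of all genes in cDC1 and 22.2% in cDC2 in this direction. No change with maturity was called. Slc30a1, the plasma membrane exporter and a well-known MTF1 target, stayed at 15.2 to 24.1 on average in every group, with adjusted p between 0.44 and 0.98 for organ and maturity. Slc30a5, a Golgi transporter, fell by 1.86 on the log2 scale with maturity in cDC1 and fell by 1.10 in cDC2.

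Copper genes mostly fell or did not pass the test. Slc31a1, the main copper importer, went from 914 ± 58.2 (n = 4) to 89.8 ± 16.0 (n = 3) in thymic cDC1 and from 862 ± 34.9 to 193 ± 20.3 in thymic cDC2 (n = 3 each). The log2 fold changes were -3.35 ± 0.17 (limma, adjusted p = 1.76e-12) and -2.16 ± 0.19 (adjusted p = 7.91e-09). Its relative Slc31a2 fell in both subsets too, by 2.78 and 1.34 on the log2 scale, and was higher in thymic than in splenic cDC2 by 2.27. Cox17, a copper chaperone of the respiratory chain, rose by 2.64 in cDC1 and 1.23 in cDC2. Atp7b, a copper pump, was called lower in mature thymic cDC1, at 3.82 ± 4.01 against 18.9 ± 8.03, with overlapping ranges. The other copper genes, among them the chaperones Atox1 and Ccs, were not called with organ or maturity.

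**Figure D4:**
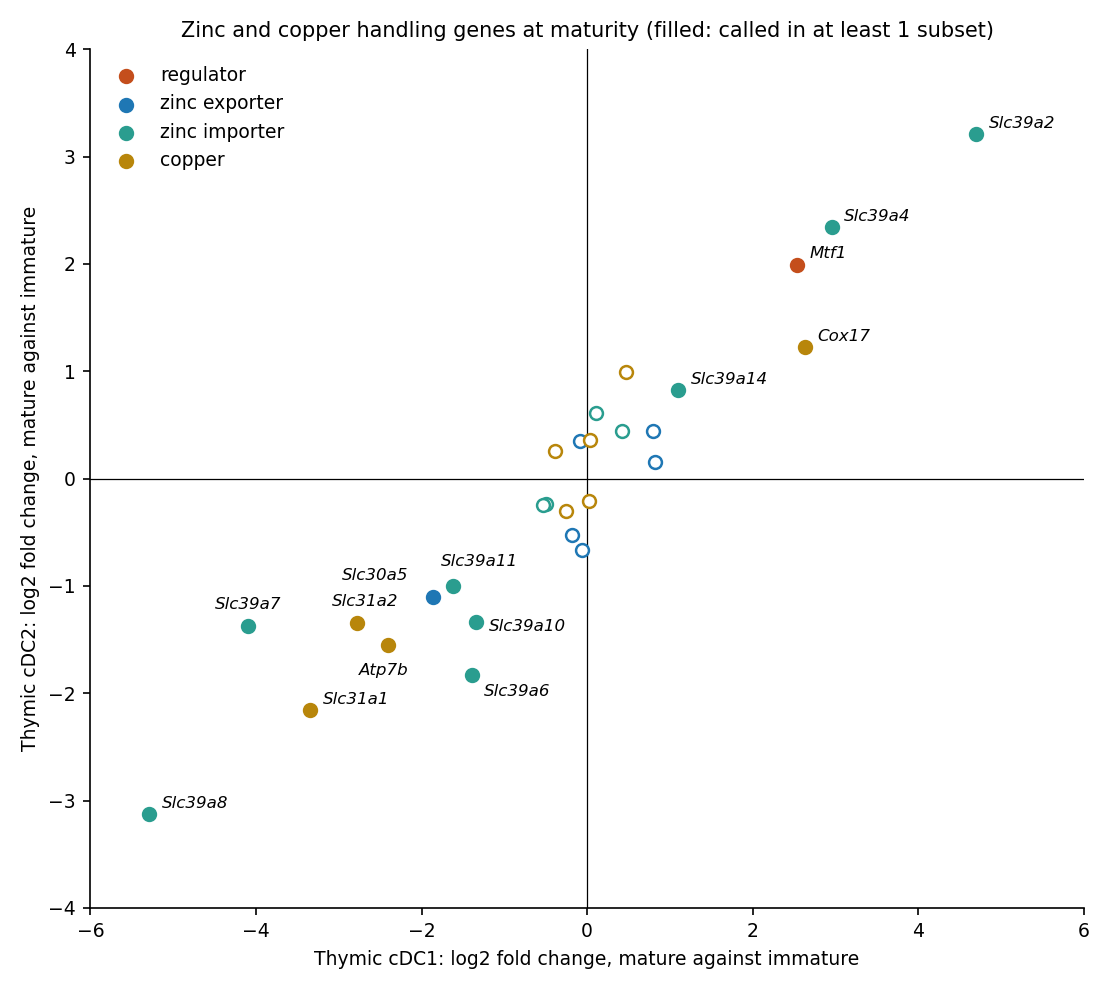
Log2 fold change of mature against immature cells in thymic cDC1 (horizontal axis) and thymic cDC2 (vertical axis) for the 28 tested genes of zinc and copper handling, coloured by role; filled points were called in at least 1 subset. Mtf1, Slc39a2, Slc39a4 and Cox17 lie to the upper right, and Slc39a8, Slc31a1 and the other genes that fell lie to the lower left.

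Subset comparisons within the list were fewer. In the spleen 1 gene was higher and 2 were lower in cDC2 than in cDC1, where 9.90% of all genes were higher and 6.71% lower. In immature thymic cells 3 were higher and 1 was lower (11.0% and 5.43% of all genes), and in mature thymic cells 5 were higher and 1 was lower (14.6% and 4.36%). The last count was 3 in both directions together without mature thymic cDC2 replicate 2. Slc39a14, an importer of zinc and iron, was at 405 ± 60.6 in immature thymic cDC2 (n = 3) and 182 ± 34.1 in immature thymic cDC1 (n = 4). Sod1, the copper-zinc superoxide dismutase, was at 6086 ± 746 and 13245 ± 3591 in the same groups. Mtf1 was not called between subsets in immature cells.

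Glucocorticoids induce Mt1 and Mt2 in many tissues, and a list of 13 genes of the glucocorticoid response, 12 of them tested, was read beside them. In thymic against splenic cDC1, 1 was higher and 0 were lower by the limma test (0 also with edgeR and DESeq2, 3 at an unadjusted p below 0.05), where 4.26% and 4.49% of all genes were called. In cDC2, 1 was higher and 4 were lower (8.30% and 5.87% of all genes). With maturity 3 rose and 4 fell in thymic cDC1 (21.3% and 24.5% of all genes), and 3 rose and 3 fell in thymic cDC2 (18.6% and 17.0%). The median log2 fold changes were 0.08 and -0.12 between organs and -0.24 and -0.21 with maturity. Fkbp5, a chaperone of the receptor and a standard target, was at 676 to 870 in the spleen, at 1525 to 2129 in immature thymic cDCs and at 438 to 791 in mature thymic cDCs. Other targets on the list went the other way with maturity. In thymic cDC2, Zbtb16 went from 12.1 ± 5.18 to 121 ± 25.5 and Ddit4 from 120 ± 43.9 to 514 ± 128 (n = 3 each). Both were higher in splenic than in immature thymic cDC2, with splenic levels of 129 ± 55.0 for Zbtb16 and 545 ± 83.8 for Ddit4 (n = 3). The part of glucocorticoids in the levels of Mt1, Mt2 and Mt3 was not tested. The receptor gene Nr3c1 was not called, with means between 3140 and 4740. Klf9 rose from 45.2 ± 9.67 (n = 4) to 349 ± 39.7 (n = 3) with maturity in cDC1, while in cDC2 it was at 313 ± 54.5 and 355 ± 183 (n = 3 each).

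Of 8 named neighbours of the metallothionein genes on the chromosome, 7 were tested. In thymic against splenic cells 1 was higher and 1 lower in cDC1 (4.26% and 4.49% of all genes), and 0 were higher and 1 lower in cDC2 (8.30% and 5.87%) by the limma test. With maturity 1 rose and 2 fell in cDC1 (21.3% and 24.5% of all genes), and 2 rose and 0 fell in cDC2 (18.6% and 17.0%). For both counts of 0, edgeR and DESeq2 also gave 0, and 2 genes had an unadjusted p below 0.05. Gnao1 was the gene higher in thymic cDC1 and 1 of the 2 that fell with maturity in cDC1. It passed the filter on low values only through immature thymic cDC1, where it was high, so the filter favoured these calls. The median log2 fold changes of the 7 were 0.35 and -0.04 between organs and -0.66 and 0 with maturity. Ogfod1, Nup93 and Herpud1, which flank the cluster on either side, were not called in any of these 4 comparisons. Bbs2, which lies between Ogfod1 and the cluster, was 1 of the 2 that rose with maturity in cDC2. It went from 177 ± 31.3 to 366 ± 49.7 there (n = 3 each). In cDC1 it was at 291 ± 46.3 (n = 4) and 473 ± 75.6 (n = 3) and was not called.

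Gnao1, which encodes a G protein subunit best known from neurons, differed in the same directions as Mt3 in cDC1. It was at 57.4, 68.3, 48.4 and 24.3 in immature thymic cDC1, at 0, 0, 1.85 and 0 in splenic cDC1 and at 5.53, 0 and 8.80 in mature thymic cDC1. The immature thymic samples stood above both other groups without overlap, as for 8.85% of all genes against the spleen and 28.1% against mature cells. The log2 differences were 5.19 ± 0.62 for thymus against spleen and -3.57 ± 0.67 with maturity. They are given without a p, since Gnao1 passed the filter on low values only through immature thymic cDC1. In cDC2 of every group Gnao1 was at 0, while Mt3 had 32 to 62 reads in each immature thymic cDC2 sample, so both genes did not go together there. Nudt21, which encodes a subunit of a pre-mRNA cleavage factor, was the other neighbour that fell with maturity in cDC1, from 1595 ± 157 (n = 4) to 689 ± 229 (n = 3), a log2 fold change of -1.26 ± 0.19 (limma, adjusted p = 1.04e-05). Its other differences had the signs of Mt3 but were not called, at 0.35 ± 0.18 and 0.53 ± 0.21 for thymus against spleen in cDC1 and cDC2 and -0.65 ± 0.21 with maturity in cDC2. Slc12a3, the renal sodium chloride transporter on the other side of the cluster, was lower in thymic than in splenic cells (-2.27 ± 0.31 in cDC1 and -3.45 ± 0.36 in cDC2) and higher in mature cells (1.89 ± 0.33 and 2.24 ± 0.36), the reverse of Mt3.

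**Figure D5:**
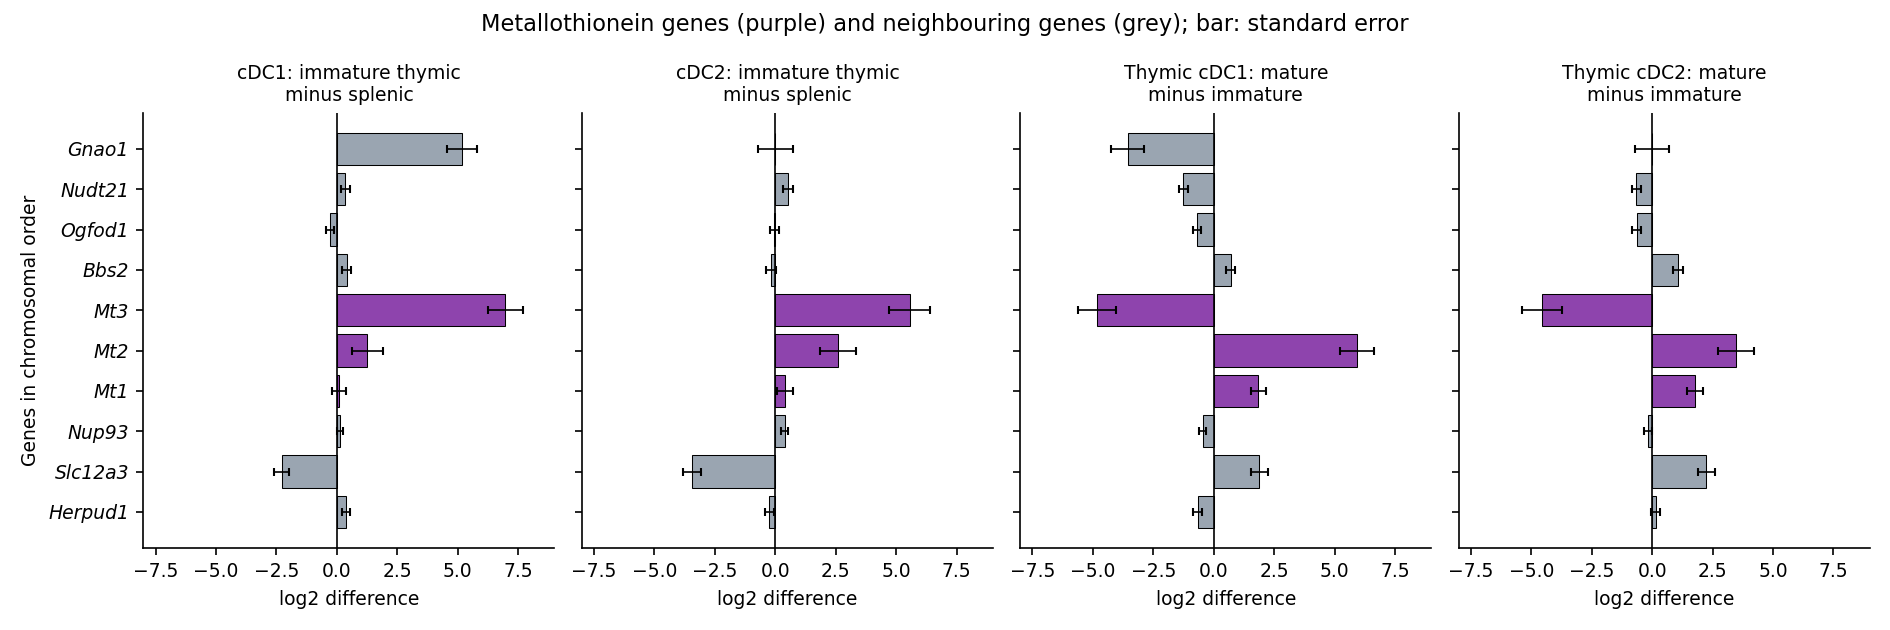
Log2 differences of Mt3, Mt2 and Mt1 (purple) and of 7 neighbouring genes (grey) in chromosomal order, for thymus against spleen and for mature against immature cells; bars are standard errors. Bbs2 lies above 0 for mature against immature cells in both subsets. Gnao1 has the signs of Mt3 in cDC1 and is at 0 in cDC2, Nudt21 has the signs of Mt3 in all 4 comparisons with smaller values, Slc12a3 has the opposite signs to Mt3, and Ogfod1, Nup93 and Herpud1 lie between -0.70 (Ogfod1, maturity in cDC1) and 0.40 (Nup93, thymus against spleen in cDC2).

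The genes most like each metallothionein over the 20 samples were named by the Pearson correlation of log2(value + 1), as a description. For Mt1 they were Adm (0.961), Spr (0.946), Tmem120b (0.941), Tnfrsf18 (0.940) and Shb (0.937). For Mt2 they were Shb (0.972), Glipr2 (0.969), Adm (0.966), Ndnf (0.966) and Cd63 (0.964). Adm, which encodes the peptide hormone adrenomedullin, was common to both and went from 35.9 ± 18.1 in immature to 1045 ± 245 in mature thymic cDC2 (n = 3 each), and like Mt1 and Mt2 it was lowest of the mature cDC2 samples in replicate 3, at 762 against 1183 and 1191. Many genes shared these patterns: 132 had a correlation above 0.9 with Mt1 and 250 with Mt2.

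Only 4 genes had a correlation above 0.9 with Mt3. They were Irf7 (0.930), AF067061 (0.910), Tmem219 (0.905) and Ifi44 (0.902), followed by Ank2 (0.894). Irf7, a transcription factor of the type I interferon response, was at 12924, 16099, 17601 and 11736 in immature thymic cDC1 and at 10072, 12262 and 11561 in immature thymic cDC2. In the spleen it was at 1887 to 3742. Mature thymic cDC1 had 4404, 3664 and 13081, so that replicate 3 lay within the range of immature thymic cells, and mature thymic cDC2 had 2096 to 4580. Ifi44, an interferon-induced gene, was at 1191 to 2698 in immature thymic, 98.8 to 260 in splenic and 304 to 770 in mature thymic cells. Unlike Mt3, both genes were well above 0 in the spleen. AF067061 was at 0 in all splenic and mature samples and at 19.1 ± 11.0 in immature thymic cDC1 (n = 4), and it may share reads with near-identical copies. When the correlation was taken over the 6 group means in place of the samples, 1 of the 5 leading genes was kept for each metallothionein.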

How the data were processed

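Immature and mature cDC1 and cDC2 of C57BL/6 mice were profiled by stranded mRNA sequencing. The authors used Cutadapt for trimming, STAR 2.6 for alignment to mm10, HTSeq-count for read counts per Ensembl gene and DESeq2 1.24.0 for normalization. The deposited values are a signal, each gene's read count divided by a size factor. Division by the value of 1 read gave whole reads (within 0.01) for 100% of the values. Libraries held 14266867 to 40119669 reads, so that 3 reads correspond to a level of 1.15 to 5.53.

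Splenic cDC1 replicates 4 and 5 were counted as 1 sample, because the chi-square of their reads over its degrees of freedom was 2.44 and other pairs of that group gave 25.0 to 176. The fit used limma 3.58.1 (trend) on log2(value + 1) for all 6 groups together, over 14966 genes that reached 10 in 3 or more samples, with Benjamini-Hochberg adjustment over all of them. Calls required an adjusted p under 0.1 together with a log2 fold change beyond 1 in size, and errors of differences are standard errors of this fit. The p-values measure the spread between these samples only. edgeR 4.0.16 and DESeq2 1.42.0 on the whole reads, pseudocounts of 1 and 8, no filter, a lane term, lane 8 alone, TMM scaling, a replicate block and leaving out each sample were alternatives. TMM scaling moved the median of all genes by at most 0.044 on the log2 scale. Scripts were tested on simulated data.

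Named genes were the 3 metallothioneins, up to 4 called genes with the largest change per list and comparison, list genes whose role is explained, the 5 most correlated genes of each metallothionein and cell type markers. The members and gene lists were chosen with earlier results of these data known. Positions came from GENCODE M21, with 37607 of 37734 gene identifiers matched, and promoters from the RefSeq table of GRCm38.p6. Protein sequences were not used here, and 1 further gene near the cluster is not reported here.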

Additional observations from a re-analysis of the deposited data

Results flagged for a closer look

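In splenic cDC1 (n = 4), 1 sample stood apart from the other samples for 3 genes beside the metallothioneins: Klf9 was at 174 in replicate 1, Slc39a4 at 3.09 in replicate 1 and Gnao1 at 1.85 in replicate 3, the last 2 resting on 2 or 3 reads. Chance alone gives such a gap in about 1 of 20 groups. No sample stood apart in this way for Mt1, Mt2 or Mt3 in the 2 groups of 4 samples, and groups of 3 were not examined.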

How the results depend on the processing

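Of 153 alternative values for Mt1, Mt2 and Mt3 other than those that left out samples, 144 moved by less than the spread between replicates. With edgeR, Mt3 differed by 8.25 (thymus against spleen, cDC1), 8.68 (cDC2), -2.61 (splenic cDC2 against cDC1) and -3.08 (mature cDC2 against cDC1), all set by counts near 0. A pseudocount of 8 gave 4.53 and 2.75 between organs and -3.57 and -2.56 with maturity. In lane 8 alone the Mt2 difference of thymic and splenic cDC2 was 1.39, and 1 called neighbour was left with maturity in cDC2. Leaving out 1 sample gave -5.59 to -3.45 for Mt3 with maturity in cDC1 and -3.15 to -1.01 between mature subsets, the outer values in both cases resting on mature thymic cDC1 replicate 2 being left out or kept. The sign changed only for Mt1 between thymic and splenic cDC1, a value within its error: -0.01 with a lane term and -0.02 in lane 8 alone, and -0.10 to 0.28 when samples were left out.

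Of the 137 counts of called list genes, 126 stayed within 1.5 times. By adjusted p alone, zinc and copper calls were 3 and 6 between organs in cDC1 and cDC2, 17 with maturity in cDC2, and 5 and 15 between splenic and mature subsets. The glucocorticoid list then had 4 calls between organs in cDC1, and the neighbours had 3 between organs in cDC2 and 7 and 4 with maturity. edgeR gave 3 zinc and copper calls between mature subsets. Leaving out 1 sample gave 1 to 2 zinc and copper calls and 1 to 2 glucocorticoid calls between organs in cDC1, 3 to 6 zinc and copper calls between mature subsets, and 1 to 2 neighbours with maturity in cDC2 (1 without immature replicate 1 or mature replicate 3). The cause of these shifts was not tested.

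Samples with the same number had correlations of their deviations from group means of -0.15 to 0.46, and samples with other numbers -0.49 to 0.26. These ranges overlapped, and pairing was not tested. With a replicate block, the cDC2 minus cDC1 differences in spleen and immature thymus were 0.62 and 0.94 for Mt1, 2.03 and 3.24 for Mt2 and -0.66 and -1.96 for Mt3, and the zinc and copper calls were 3 and 5.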
